A study of Mus musculus with 6 samples.

Results

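The genes described here encode 9 surface proteins by which mouse haematopoietic stem and progenitor cells are recognised or divided: Cd34, Thy1, Procr, Ptprc, Cd38, Cd27, Eng, Cd93 and Alcam. For each, the probe set with exactly 1 gene symbol in the platform annotation was taken, and where a gene had several, the brightest by its mean across the arrays was kept. This gave 8 members among 19938 genes measured, and Cd38 is not analysed here. The members were named by function, but they were chosen with earlier results of these data known. They were measured in KSL cells, the bone marrow cells that carry cKit and Sca1 and no lineage markers, on Affymetrix Mouse Gene 1.0 ST arrays. The double knockout (DKO) group held 3 samples of the genotype Runx1fl/fl;Runx3fl/fl;Mx1-Cre+, and the wild-type (WT) group held 3 samples of Runx1fl/fl;Runx3fl/fl;Mx1-Cre- littermates, both on C57BL/6 after at least 3 generations of backcrossing. Per the labels' protocols, 600 µg of pIpC, a double-stranded RNA analogue, was given on 7 alternate days from 4 weeks of age, while the sample descriptions call the sorted cells of both groups untreated. Mx1-Cre is driven by an interferon-responsive promoter that is not restricted to blood cells, and floxed alleles were shared by both groups, so that deletion and presence of the transgene cannot be told apart. Each WT sample came from a pool of 3 mice. For DKO samples no pooling is described, and the design text counts 6 mice in total, so it is unsettled whether n = 3 stands for mice or for pools.

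As background, a KSL cell is a mixture of stem cells and several multipotent progenitors, and surface proteins are what separates them in a sort. In adult mice the most primitive cells largely lack CD34, carry low amounts of Thy1 and high amounts of the protein C receptor Procr, while CD27 and CD93 are found on early progenitors as well. CD45, the product of Ptprc, is carried by nearly all nucleated blood cells, and endoglin (Eng) and Alcam are shared with endothelium and stroma. The arrays measured transcripts of the whole sorted fraction, in which fewer cells of a type and less RNA per cell cannot be told apart. Gene-level signals also do not separate the splice forms of Ptprc.

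The arrays correlated at 0.993 to 0.995 within DKO, 0.989 to 0.991 within WT and 0.976 to 0.980 between the groups over all genes. Runx1 signal was 9.22, 9.37 and 9.28 in the DKO-labelled samples against 8.49, 8.53 and 8.38 in WT, a rise of 0.82 (limma adjusted p = 0.000427), and Runx3 differed by -0.15 (adjusted p = 0.253). These gene-level signals include probes outside any deleted exons and check no deletion, and directions below are those of the labels. Kit, the receptor used in the sort, rose by 0.73 (adjusted p = 0.00289), with 10.35 to 10.72 in DKO and 9.63 to 9.85 in WT. The other sorted protein, Sca1 (Ly6a), is not analysed here. Signals of the Y-linked genes Uty and Kdm5d were present in every sample and higher in DKO by 0.82 and 0.67 (adjusted p = 0.000355 and 0.00148). Eif2s3y, also Y-linked, rose by 0.44 (adjusted p = 0.0136), a call lost in some other fits (up to 0.136). Xist differed by -0.44 without passing (adjusted p = 0.0643). The part of these sex chromosome genes in the results below was not tested.

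Of the 8 markers, 3 rose in the DKO samples and 3 fell. Ptprc, Cd93 and Eng rose by 0.76, 0.64 and 0.42 on the log2 scale, and Alcam, Thy1 and Cd27 fell by 1.27, 1.09 and 0.29. Procr differed by -0.36 and Cd34 by 0.02 without passing. A gene passed when its limma p-value, adjusted by Benjamini and Hochberg over all 19938 genes, was below 0.05. Over all genes 9.71% rose and 7.69% fell, together 17.4%, or 1936 and 1533 genes, a split that became 2254 and 1121 when each array was centred on its median. DKO and WT values did not overlap for 6 of the 8 markers, beside 35.8% of all genes. All DKO values lay above all WT values for 3 markers (16.2% of all genes) and below them for 3 (19.6%). The median difference of the 8 markers was -0.13 and that of all genes -0.04, while the median size regardless of sign was 0.53 against 0.15. All 8 markers were brighter than most genes, with mean signals from the 65.8th (Thy1) to the 98.6th percentile (Cd34). Without the dimmest 50% of genes 1995 genes still rose and 1269 fell. Calls were thus more common among bright genes than the shares over all genes show.

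**Figure D1:**
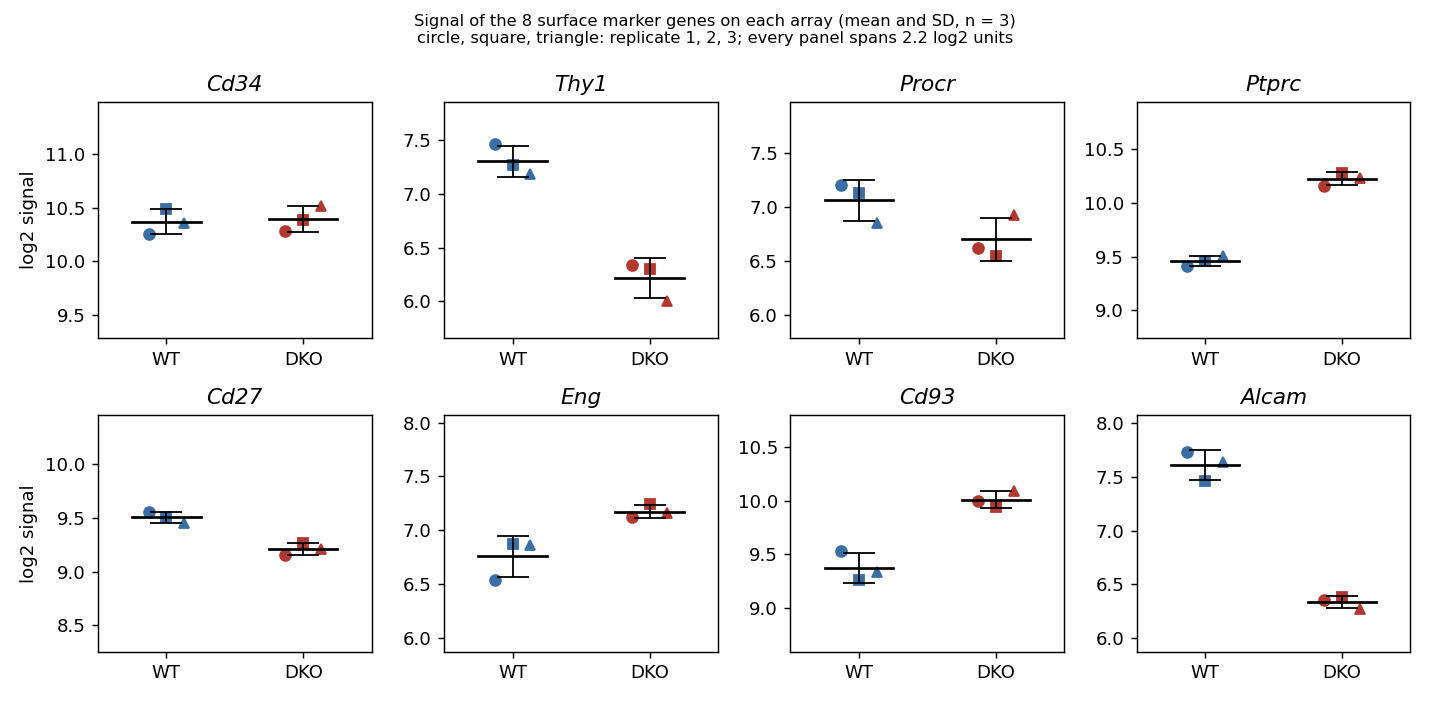
Log2 signal of each marker gene (y axis, every panel spanning the same range) in the WT and DKO samples (x axis), with points for the arrays and a bar for the mean ± SD (n = 3). The groups stand apart for Thy1, Ptprc, Cd27, Eng, Cd93 and Alcam and overlap for Cd34 and Procr.

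**Figure D2:**
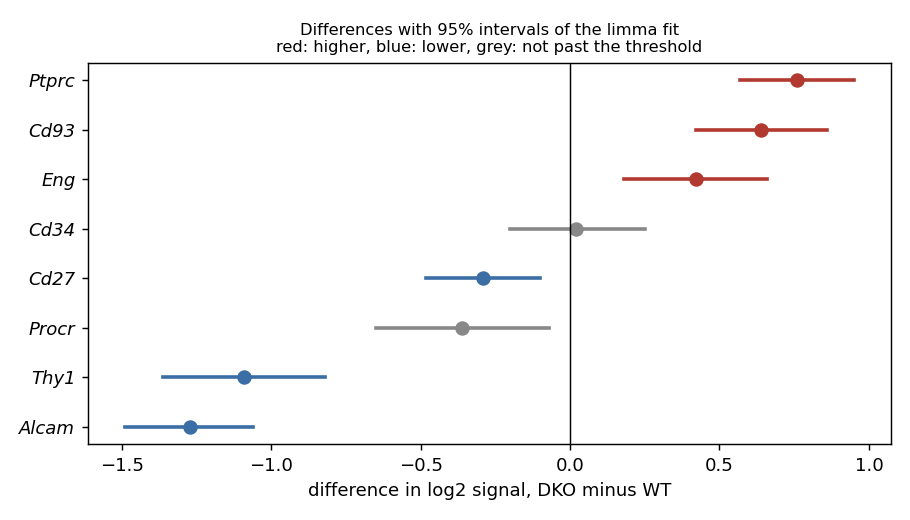
Difference in log2 signal, DKO minus WT (x axis), with 95% intervals of the limma fit for the 8 marker genes (y axis). Alcam and Thy1 lie lowest, at -1.27 and -1.09, Ptprc, Cd93 and Eng lie above 0, and the interval of Cd34 runs from -0.20 to 0.25.

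The 250 bases before the annotated start of 3 markers are shown for comparison, since 1 of them fell (Alcam), 1 rose (Eng) and 1 did not pass (Cd34), and the factors named in the genotype bind DNA. The sequences are from RefSeq (GRCm38.p6), read 5′ to 3′ on the strand of the gene, with the Ets core GGAA or its reverse complement TTCC in capitals. The Ets letters were chosen after the sequences were seen.
Alcam, chr16:52453082-52453331, minus strand: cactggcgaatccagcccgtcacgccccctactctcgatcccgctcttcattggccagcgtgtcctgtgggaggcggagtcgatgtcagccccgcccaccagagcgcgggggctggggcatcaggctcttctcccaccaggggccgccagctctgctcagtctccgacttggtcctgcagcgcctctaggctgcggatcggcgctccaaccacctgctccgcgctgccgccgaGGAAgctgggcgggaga
Eng, chr2:32646345-32646594, plus strand: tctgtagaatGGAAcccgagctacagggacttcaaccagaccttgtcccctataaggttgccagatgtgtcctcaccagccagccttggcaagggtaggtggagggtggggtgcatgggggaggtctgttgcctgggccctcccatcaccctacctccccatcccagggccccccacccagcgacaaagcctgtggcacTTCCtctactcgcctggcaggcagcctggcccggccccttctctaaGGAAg
Cd34, chr1:194938571-194938820, plus strand: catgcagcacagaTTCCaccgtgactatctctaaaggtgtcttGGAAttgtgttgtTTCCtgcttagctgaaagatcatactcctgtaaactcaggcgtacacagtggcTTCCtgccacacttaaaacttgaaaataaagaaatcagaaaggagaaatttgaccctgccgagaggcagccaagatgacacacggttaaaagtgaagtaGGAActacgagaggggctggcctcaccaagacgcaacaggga
GGAA was found on either strand 1 time for Alcam, 3 times for Eng and 5 times for Cd34, and 93.4% of 32851 promoters hold it, with a median of 3. The core letters of Runx sites, TGTGGT and TGCGGT on either strand, were found in 0 of the 8 windows available for 7 of the 9 listed genes, Cd38 among them. Of all 32851 promoters of the same length 18.6% hold them. These letters were searched in these windows alone, and the count says nothing of binding elsewhere.

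Among the proteins held by a GPI anchor, Thy1 fell and Procr did not pass. Thy1, a small immunoglobulin-like glycoprotein found on T cells and at low levels on mouse stem cells, had signals of 6.34, 6.30 and 6.00 in the DKO samples and 7.46, 7.27 and 7.18 in WT. Each DKO value lay below each WT value, with 0.84 between the nearest 2 values. The difference of -1.09 (SE 0.119, adjusted p = 0.000445) is a 2.13-fold lower signal, and it was the 91st lowest among 19938 genes. DKO replicate 3 had the lowest value, and without it the difference was -0.98 (adjusted p = 0.00229).

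Procr encodes the endothelial protein C receptor, which presents protein C for activation and marks stem cells strongly. Its signals were 6.62, 6.55 and 6.93 in DKO and 7.21, 7.13 and 6.85 in WT. DKO replicate 3 lay above WT replicate 3, so the groups overlapped. The means of 6.70 ± 0.20 and 7.06 ± 0.19 (SD, n = 3) differed by -0.36, with an interval of -0.65 to -0.07 and a limma adjusted p of 0.0879. It passed without WT replicate 3 (-0.47, adjusted p = 0.0468), and over 19 alternatives the difference ran from -0.48 to -0.29 and the adjusted p from 0.0468 to 0.249.

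Cd34, a sialomucin carried by multipotent progenitors and lost from most adult mouse stem cells, had 10.28, 10.39 and 10.52 in DKO and 10.26, 10.49 and 10.36 in WT. The ranges of the groups overlapped. The difference was 0.02 (SE 0.101, adjusted p = 0.902), with a 95% interval of -0.20 to 0.25 on the deposited scale. The sign of so small a difference turned with the scaling: it was -0.09 with quantile normalisation, -0.10 with cyclic loess and -0.14 (SE 0.101) with the span and signal trend removed.

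Ptprc rose with little spread. The gene encodes CD45, a tyrosine phosphatase that removes an inhibitory phosphate from Src family kinases. Signals were 10.16, 10.28 and 10.23 in DKO against 9.41, 9.46 and 9.51 in WT, so that the lowest DKO value was 0.65 above the highest WT value. The rise of 0.76 (SE 0.084, adjusted p = 0.000459) corresponds to 1.7-fold. With a trend of the differences over gene span and signal removed, it was 0.47 and still passed (adjusted p = 0.00584). Over 19 alternatives the adjusted p was between 0.000141 and 0.0151. Ptprcap, whose product associates with CD45, went the other way at -0.34 (adjusted p = 0.0417), a call that was lost without each of DKO replicates 1, 2 and 3 and WT replicates 1 and 3 (up to 0.138).

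Of the receptors, Eng rose and Cd27 fell, both by small amounts. Eng encodes endoglin, a co-receptor for ligands of the TGF-beta family. Its signals were 7.12, 7.24 and 7.16 in DKO and 6.54, 6.87 and 6.86 in WT. WT replicate 1 was the lowest of the 6, and the nearest values of the groups were 0.25 apart. The rise of 0.42 (SE 0.107, adjusted p = 0.0258) is 1.34-fold. The call was lost without DKO replicate 1, 2 or 3 (adjusted p = 0.0609, 0.0888 and 0.0767) and without WT replicate 1 (0.31, adjusted p = 0.0538). The 19 alternatives gave adjusted p-values between 0.0164 and 0.0888.

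Cd27, a receptor of the TNF receptor family whose ligand is CD70, had 9.15, 9.27 and 9.21 in DKO and 9.55, 9.51 and 9.45 in WT. The groups did not overlap but came within 0.18 of each other. The fall of 0.29 (SE 0.0846) is a 1.22-fold lower signal and lay close to the threshold (adjusted p = 0.0412). It missed the threshold without any 1 of the 6 arrays (adjusted p = 0.0622 to 0.144) and with median centring (-0.25, adjusted p = 0.0774). With quantile normalisation it was larger, at -0.45 (adjusted p = 0.00786). Every one of the 19 alternatives kept a negative difference.

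The lectin-like Cd93 and the adhesion molecule Alcam moved in opposite directions. Cd93, also known as AA4.1, is a membrane protein with a C-type lectin-like domain found on early haematopoietic precursors and endothelium. Signals were 10.00, 9.94 and 10.09 in DKO and 9.53, 9.26 and 9.34 in WT, with every DKO value higher. The rise was 0.64 (SE 0.0988, adjusted p = 0.0025), or 1.56-fold, and it was 0.50 to 0.72 over 19 alternatives, all of which passed.

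Alcam, the immunoglobulin superfamily protein CD166 that binds itself and CD6, had the lowest adjusted p of the 8 markers. Its signals were 6.36, 6.38 and 6.27 in DKO and 7.73, 7.46 and 7.64 in WT. The 3 DKO values lay within a narrow band and at least 1.08 below the WT values. The fall of 1.27 (SE 0.0967, adjusted p = 6.68e-05) is a 2.42-fold lower signal and ranked as the 59th lowest difference among 19938 genes. It ran from -1.37 to -1.21 over 19 alternatives, with adjusted p from 4.15e-05 to 0.000881.

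The replicates varied in different ways by gene. Within DKO the SD was 0.06 for Ptprc, Cd27, Eng and Alcam and 0.19 and 0.20 for Thy1 and Procr. DKO replicate 3 was the highest DKO sample for Cd34, Procr and Cd93 and the lowest for Thy1 and Alcam. WT replicate 1 was the highest WT sample for Thy1, Procr, Cd27, Cd93 and Alcam and the lowest for Cd34, Ptprc and Eng. Likeness between genes was measured as the root mean square difference of log2 values over the 6 arrays, each gene centred on its own mean. By this measure the closest pair of markers was Ptprc and Cd93 (0.136), followed by Thy1 and Alcam (0.144).

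Of all genes, those nearest to each marker that passed were mostly not surface proteins. Srgap2, Mtf2 and Arid4a were nearest to Ptprc (0.0419, 0.0428 and 0.0483 over 6 arrays), and Pygl, Cltc and Nat2 to Cd93 (0.0435, 0.0488 and 0.0497). The genes nearest to Eng were Atp23, Zhx3 and Ubp1 (0.0383, 0.0393 and 0.0402). Those nearest to Alcam were Aamp, Ppp1r9b and H4c8 (0.0535, 0.0624 and 0.0877), and those nearest to Thy1 were Pgls, Znhit1 and Nos1ap (0.101, 0.108 and 0.119). Cd27 was nearest to 1700029I15Rik, Rnf187 and Lrrc26 (0.00975, 0.021 and 0.023). These profiles are dominated by the step between the groups, which many genes share.

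**Figure D3:**
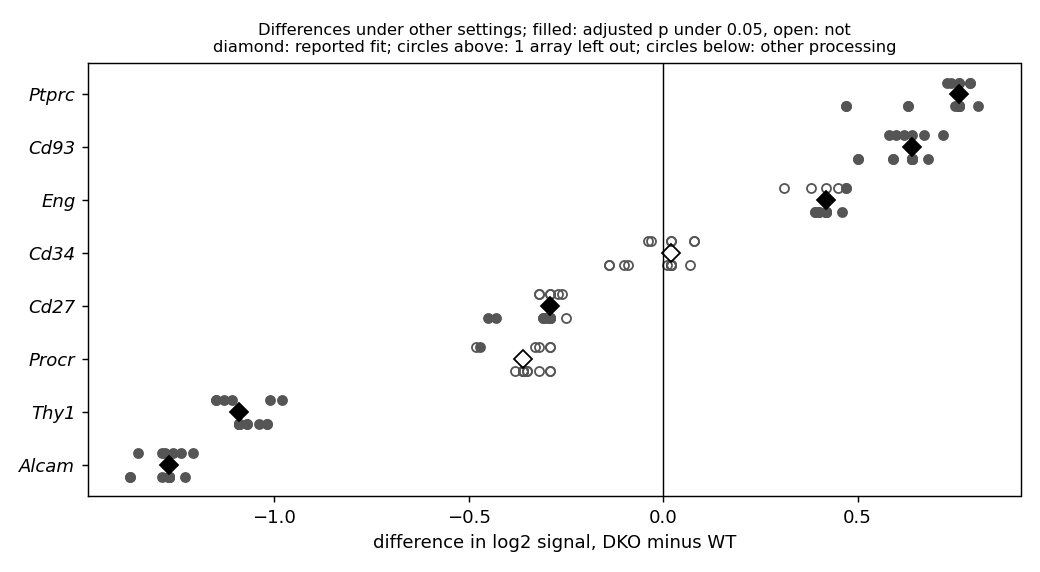
Difference in log2 signal, DKO minus WT (x axis), of each marker gene (y axis) in the reported fit (diamonds), with 1 array left out (upper circles) and under other processing (lower circles), filled where the adjusted p was below 0.05. Alcam, Thy1, Ptprc and Cd93 stay filled throughout, Cd27 and Eng turn open in part, and Cd34 lies on both sides of 0.

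The genes whose products bind the markers or carry their signals showed calls in both directions. Of 34 measured partners and signalling genes 7 rose and 4 fell, beside 9.71% and 7.69% of all genes. The other 23 did not pass, and the median difference was 0.04. Around Procr, F2r, the thrombin receptor PAR1 that protein C bound to Procr can cleave, rose by 1.47 (8.47, 8.41 and 8.39 in DKO against 6.93, 6.76 and 7.16 in WT, adjusted p = 6.38e-05). F2rl2, the related receptor PAR3, rose by 0.65 (adjusted p = 0.00229), and the thrombin-binding Thbd by 0.73 (adjusted p = 0.00441). Around Cd27, Siva1, whose product binds the tail of CD27, fell by 1.08 (8.24, 7.76 and 8.15 against 9.07, 9.22 and 9.09, adjusted p = 0.000642), while the ligand Cd70 was at 0.00 and the adaptors Traf2 and Traf5 were at 0.09 and 0.19 without passing. Around Eng, the receptor kinase Tgfbr1 and the signal carrier Smad5 rose by 0.57 and 0.71 (adjusted p = 0.00571 and 0.00126), whereas Acvrl1 and Tgfbr2 differed by 0.10 and 0.07. Gipc1, also in the list, fell by 0.33 (adjusted p = 0.049), a call lost in every fit without 1 array (up to 0.173). Smad1 rose by 0.55 (adjusted p = 0.0428), a call lost when DKO replicate 1, 2 or 3 was left out (adjusted p up to 0.129), with quantile normalisation and with the trend removed, and it was at 0.34 without WT replicate 2. Lgals1, the glycan-binding galectin-1 that can bind CD45, fell by 1.27 (adjusted p = 0.00301). The count of 4 falls was 2 without each of DKO replicates 1, 2 and 3 and WT replicates 1 and 3, and also 2 with median centring and with the span and signal trend removed.

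Structural relatives of the markers had calls in both directions. Of 34 relatives 6 rose and 3 fell, beside 9.71% and 7.69% of all genes. The other 25 did not pass, and the median was -0.05. The receptor-type phosphatase Ptprm rose by 1.99 (7.05 against 5.06, adjusted p = 5.72e-05) and Ptpre by 0.65 (adjusted p = 0.00398), in the same direction as Ptprc, while Ptprs fell by 0.38 (adjusted p = 0.0311; lost without DKO replicate 1 or 3 or WT replicate 2 or 3, up to 0.121). The other 6 receptor-type phosphatases of the list, Ptpra, Ptprb, Ptprf, Ptprj, Ptprk and Ptpro, were at -0.18 to 0.37 and did not pass. Thbd, a relative of Cd93 that also stands in the list of partners, rose, and the other relatives Cd248 and Clec14a differed by -0.26 and -0.23 without passing. Podxl and Podxl2, the relatives of Cd34, were at 0.17 and -0.07, and Bst1, the relative of Cd38, was at -0.11, none of them past the threshold. The small GPI-anchored Cd24a fell by 0.67 (adjusted p = 0.00287). Cd1d1, Tnfrsf4 and Ly6e rose by 1.05, 0.34 and 0.31 (adjusted p = 0.0179, 0.0348 and 0.0418). Tnfrsf1a fell by 0.39 (adjusted p = 0.0248). For Cd1d1, Tnfrsf4, Ly6e and Tnfrsf1a the call was lost in some fits without 1 array (adjusted p up to 0.0688, 0.121, 0.145 and 0.0959). The count of 6 rises was 3 without DKO replicate 2 or 3, and the count of 3 falls was 1 without DKO replicate 1 or 3 or WT replicate 3.

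Other surface proteins that divide stem and progenitor cells moved more often upward. Of 35 measured, 16 rose and 5 fell, with a median of 0.19 and a median size of 0.51, beside the 9.71% and 7.69% of all genes. Jam3, a junctional adhesion molecule, rose by 2.45 (7.59, 7.51 and 7.71 in DKO and 4.91, 5.42 and 5.13 in WT, adjusted p = 1.21e-05). The integrin chain Itga6 rose by 1.60, the angiopoietin receptor Tek by 1.64 and Slamf1, a stem cell marker, by 1.95 (adjusted p = 1.24e-05, 4.67e-05 and 6.38e-05). Among the other rises were Cd48, Cd53, Fcgr2b and Cd44, at 1.46, 1.35, 1.33 and 1.12 (adjusted p = 7.18e-05, 0.000208, 8.27e-05 and 0.000516). Cd24a was among the falls, as was Flt3, the receptor tyrosine kinase that marks lymphoid-primed multipotent progenitors (-1.32, adjusted p = 0.000434). The other falls were Cd82, Cd200 and Cd244a, at -0.51, -0.43 and -0.34 (adjusted p = 0.0113, 0.0129 and 0.0406). The 5 falls were 2 without DKO replicate 3, while the rises were 14 to 17 over the fits that left out 1 array. The list was chosen with earlier results of these data known, and some of its genes were described then.

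**Figure D4:**
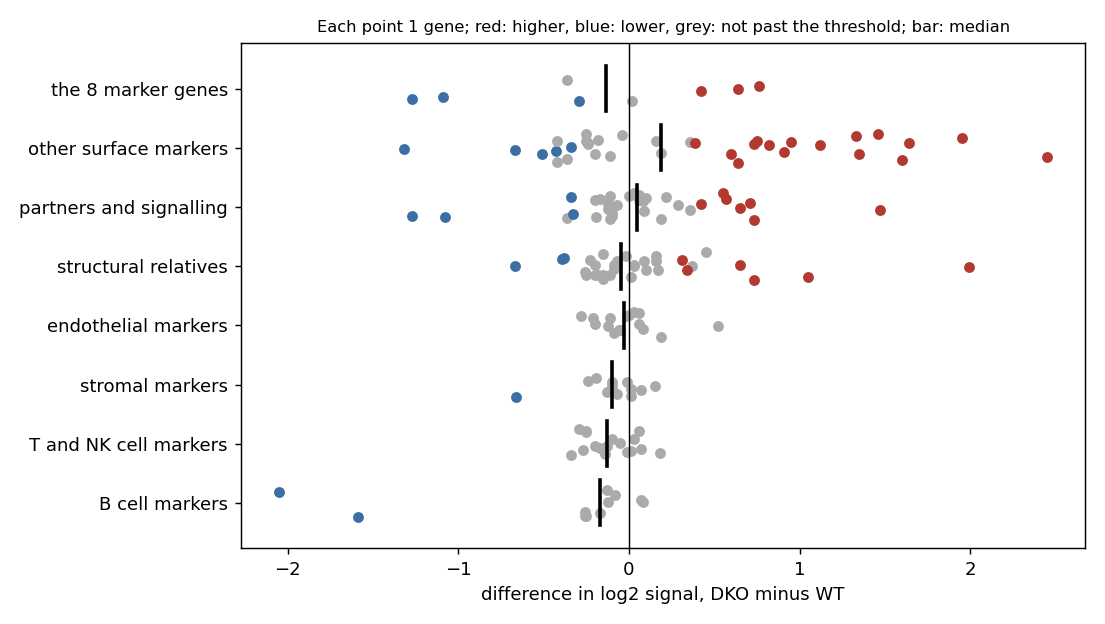
Difference in log2 signal, DKO minus WT (x axis), of every measured gene in 8 gene lists (y axis), coloured by call, with a bar at the median of each list. The marker genes spread from -1.27 to 0.76, the other surface markers reach 2.45, and most genes of endothelial, stromal and T and NK cells lie near 0.

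Several of the markers are also carried by cells that a KSL sort should leave out, so the markers of those cells were set beside them. Of all genes 17.4% passed, 9.71% upward and 7.69% downward. Of 16 endothelial markers, a cell type that carries Eng, Cd93, Procr, Cd34 and Alcam, 0 passed in limma and 2 had an unadjusted p below 0.05, Emcn (0.52, adjusted p = 0.0917) and Sox17 (-0.28, adjusted p = 0.0523). Their mean log2 signal was 5.74 to 5.76 in DKO and 5.71 to 5.84 in WT, with Cdh5 at 5.04 and 4.96 and Kdr at 5.07 and 5.01. Some markers of this list were brighter, with Emcn at 7.23 and 6.71, Tie1 at 7.25 and 7.34 and Egfl7 at 7.91 and 7.96. Leaving out WT replicate 1 gave 1 call. Of 13 stromal markers 0 rose and 1 fell, Pdgfrb (-0.66, adjusted p = 0.031), a call lost without DKO replicate 1 or 3 or WT replicate 2 or 3 (adjusted p up to 0.119). The mean signal was 4.81 to 4.87 in DKO and 4.90 to 4.96 in WT. Of 17 T and NK cell markers, cells that carry Thy1 and Cd27, 0 passed in limma and 2 had an unadjusted p below 0.05. These were Zap70 (-0.29, adjusted p = 0.082) and Cd5 (-0.27, adjusted p = 0.109). The median difference of the list was -0.13, with means of 4.64 to 4.72 in DKO and 4.75 to 4.83 in WT. Without WT replicate 1 there was 1 fall. Cd3e was at 6.18 ± 0.07 in DKO and 6.12 ± 0.06 in WT (SD, n = 3). Array signals have no true 0, and 5.98 to 6.05 were the medians of the arrays over all genes.

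Markers of other lineages were also counted, beside the 9.71% of all genes that rose and the 7.69% that fell. Of 11 B cell markers 0 rose and 2 fell, Cd72 (-2.05) and Vpreb1 (-1.59), with list means of 5.29 to 5.46 in DKO and 5.70 to 5.88 in WT. Of 13 mast cell and basophil markers 5 rose, led by Cpa3 at 3.43 (adjusted p = 5.6e-07), and 3 fell, Mcpt8 (-1.32, adjusted p = 0.00313), Prss34 (-0.82, adjusted p = 0.0109) and Fcer1a (-0.68, adjusted p = 0.0421), with means of 6.20 to 6.33 and 5.69 to 5.82. Of 11 megakaryocyte and platelet markers 5 rose and 0 fell (3 rose without DKO replicate 1 or 2, and 1 fell without DKO replicate 2), led by Gp5 at 2.80 (adjusted p = 1.74e-05), with means of 6.84 to 7.44 and 6.52 to 6.66. The other 6 did not pass, among them Pf4 at -0.51 and Ppbp at -0.44 (adjusted p = 0.256 and 0.427). Of 9 erythroid markers 0 rose (1 without DKO replicate 3 and with other scalings) and 2 fell, Car1 (-2.02) and Klf1 (-0.54), the latter at -0.43 and not passing without DKO replicate 3 (adjusted p = 0.0526). Of 18 markers of mature granulocytes, monocytes and macrophages 1 rose, Lyz2 by 0.35 (adjusted p = 0.0308), and 0 fell, or 2 without WT replicate 1 or 2. That rise was lost without every array except WT replicate 2 (up to 0.11). The list as a whole leaned downward, with a median difference of -0.19 and means of 5.33 to 5.38 in DKO and 5.43 to 5.61 in WT. The part of these lineages in the rise of Ptprc and Cd93 and in the falls of Thy1, Alcam and Cd27 was not tested.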

How the data were processed

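The authors deposited log2 signals, 1 per probe set and array, for 6 arrays. Per the labels, RMA at its gene-level default is named in the titles, whereas the design text names preliminary MAS 5.0 normalisation, and Affymetrix Expression Console 1.0 appears in the submitters' processing notes. The log2 values that the authors deposited have nearly equal quartiles over the arrays, as RMA values do. Differences of dim genes are usually compressed on such arrays. Genome build and background settings were not given in the sources used here.

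Of 35556 probe sets, 21789 had 1 symbol, 1621 several and 12146 none, which left 19938 genes, and Entrez numbers of 19856 were found in the RefSeq table of GRCm38.p6. The groups were compared as DKO minus WT, two-sided, with limma 3.58.1 in R 4.3.3 (lmFit and eBayes at default settings, no filter, no covariate), with Benjamini-Hochberg adjustment over all genes and a threshold of 0.05. The script was tested on simulated data. Intervals are at the 95% level. The number of arrays limits precision. A limma p-value sets the difference between these samples against an SE whose variance is drawn toward that of all genes. The prior degrees of freedom were 5.52 and the residual ones 4. The smallest exact permutation p for 3 samples against 3 is 0.1, so none was used. No batch could be told apart from the labels.

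The members and lists were chosen with earlier results of these data known. Named genes are all members, the 3 nearest genes of each member that passed, up to 4 genes with the smallest p of each list of partners, relatives and surface markers, and up to 3 of each list of other cells. Other genes were named for their role after their values were seen. Of the listed genes, those without a probe set of 1 symbol are not analysed here. Alternatives were other scalings, filters on dim genes, other probe set choices, array weights, limma with trend or robust settings, a replicate block, removal of a loess trend over gene span and signal, other thresholds and leaving out each array.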

Additional observations from a re-analysis of the deposited data

How the results depend on the processing

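Alcam, Thy1, Ptprc and Cd93 kept their direction and passed in all 19 alternatives other than changed thresholds. Cd34 changed sign with quantile normalisation (-0.09), cyclic loess (-0.10) and the span and signal trend removed (-0.14, also -0.14 with the replicate block), and its values ran from -0.04 to 0.08 over the fits without 1 array, passing in none of them. The differences without 1 array ran from -0.48 to -0.29 for Procr, from -0.32 to -0.26 for Cd27 and from 0.31 to 0.47 for Eng. Cd27 (-0.25) also missed the threshold with median centring. At a threshold of 0.1 Procr (-0.36) passed, and at 0.01 Cd27 (-0.29) and Eng (0.42) did not. Over all genes, 1058 rose and 588 fell at a threshold of 0.01, and without 1 array 1250 to 1868 rose and 843 to 1388 fell. The lower ends of the falls came without DKO replicates 1, 2 and 3 (843, 876 and 854) and that of the rises without DKO replicate 3. Median centring gave 2254 rises and 1121 falls, against 1936 and 1533. With fewer arrays fewer residual degrees of freedom remain, and the cause of the other changes was not tested.

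Deviations of same-numbered samples from their group means correlated at -0.00874, -0.0954 and -0.0419, so the numbers were not taken as pairs. With the replicate block, 1772 genes rose and 1272 fell, and Cd27 (-0.29, adjusted p = 0.0877) missed the threshold, also with the trend removed as well (-0.31, adjusted p = 0.086). The other 7 markers stayed on the same side of it, and 2 of the partners fell in place of 4. Thy1, Procr, Eng and Alcam had signals not far above the array medians of 5.98 to 6.05, and with no background level known their folds may be understated. The Runx letters were also found in 0 windows when these were extended to 50 bases after the start.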

Other observations

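The genes beside the markers on the chromosome were looked up after the data had been seen, taking the nearest measured gene on each side in the RefSeq table. Of 16 such neighbours 2 rose, 1 fell and 13 did not pass, beside 9.71% and 7.69% of all genes. Thbd, the neighbour and relative of Cd93, rose by 0.73 with Cd93 (6.99, 7.00 and 6.90 in DKO, 5.98, 6.22 and 6.50 in WT, adjusted p = 0.00441), while Nxt1 on the other side was at -0.24 (adjusted p = 0.142). Cdk9, a kinase of transcription elongation beside Eng, fell by 0.50 (adjusted p = 0.00562), against the direction of Eng. Mir181b-1, a microRNA gene beside Ptprc, rose by 0.33 (adjusted p = 0.0239), at a dim signal of 3.95 against 3.62 (lower quartiles of the arrays 4.89 to 4.97), and it missed the threshold without DKO replicate 1 or 2 or WT replicate 2 or 3 (adjusted p up to 0.0854). The neighbours of Thy1 (Nectin1 at -0.03 and Usp2 at 0.00) and of Alcam (Cblb at 0.22 and Zpld1 at -0.24), the markers that fell most, did not pass.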
